A study of Mus musculus with 6 samples.

Results

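A set of 10 genes of the epithelial cytoskeleton and of cell-to-cell adhesion was followed in mouse liver after deletion of Sox9. They were chosen by symbol from the 24411 rows of the deposited expression table. The 10 genes are the keratins Krt8, Krt18, Krt23, Krt7 and Krt19, the E-cadherin gene Cdh1 with the catenin genes Ctnnb1 and Ctnna1, and the desmosome genes Dsg2 and Dsp. All 10 had a row and all 10 passed the filter on low values, a mean of at least 0.5 TPM (length-corrected transcript abundance scaled to a common total per library) over the 6 libraries, which kept 12539 genes in all.

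Messenger RNA of liver was sequenced, with a kit that keeps strand, from 3 control samples, labelled wild type, and from 3 samples of mice with the genotype Alb-Cre+/+;Sox9 flox/flox (Sox9 cKO), in which Cre recombinase under the albumin promoter deletes Sox9 in liver epithelial cells. C57BL/6J mice are named in the design, without being tied to a group. The groups differ in the Cre transgene and in the floxed alleles together. SOX9 is a transcription factor of bile duct cells, and the study asked about its part in the maturation of the bile duct network after birth. Age, sex and treatment are not given in the labels, and whether the libraries stand for different mice is not stated either, so the p-values reflect only how far these libraries vary.

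Keratins form the intermediate filaments of epithelial cells, always as pairs of a type I and a type II chain. Krt8 (type II) and Krt18 (type I) make the filaments of hepatocytes, and bile duct cells (cholangiocytes) add Krt7 (type II) and Krt19 (type I). E-cadherin joins neighbouring epithelial cells at adherens junctions, where beta-catenin and alpha-catenin connect it to actin. Desmosomes join keratin filaments of neighbouring cells through cadherins such as desmoglein 2 and the linker desmoplakin.

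Krt8 was the only member past the threshold of the test, an adjusted p of 0.05 in limma, and it was lower in Sox9 cKO. Levels of 7 of the 10 members (Krt8, Krt7, Cdh1, Ctnnb1, Ctnna1, Dsg2 and Dsp) were lower in every Sox9 cKO library than in every control library, without overlap. Krt18, Krt19 and Krt23 overlapped between the groups. Against this stand the shares over all tested genes, of which 8.76% passed the test as lower, 0.821% as higher and 9.59% in either direction, while 33.7% were lower without overlap and 37.5% did not overlap in either direction. The fold changes, given throughout as Sox9 cKO relative to control in units of log2(TPM + 0.5), were below 0 for all 10 members and for 77.3% of tested genes. The median log2 fold change was -0.69 over the members and -0.24 over all tested genes, and the values below are to be read against that shift. After each library was centred on its median, 4 members (Krt8, Ctnna1, Dsg2 and Dsp) remained lower without overlap, against 14.3% of tested genes, and Krt19 turned to a log2 fold change of 0.12.

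**Figure D1:**
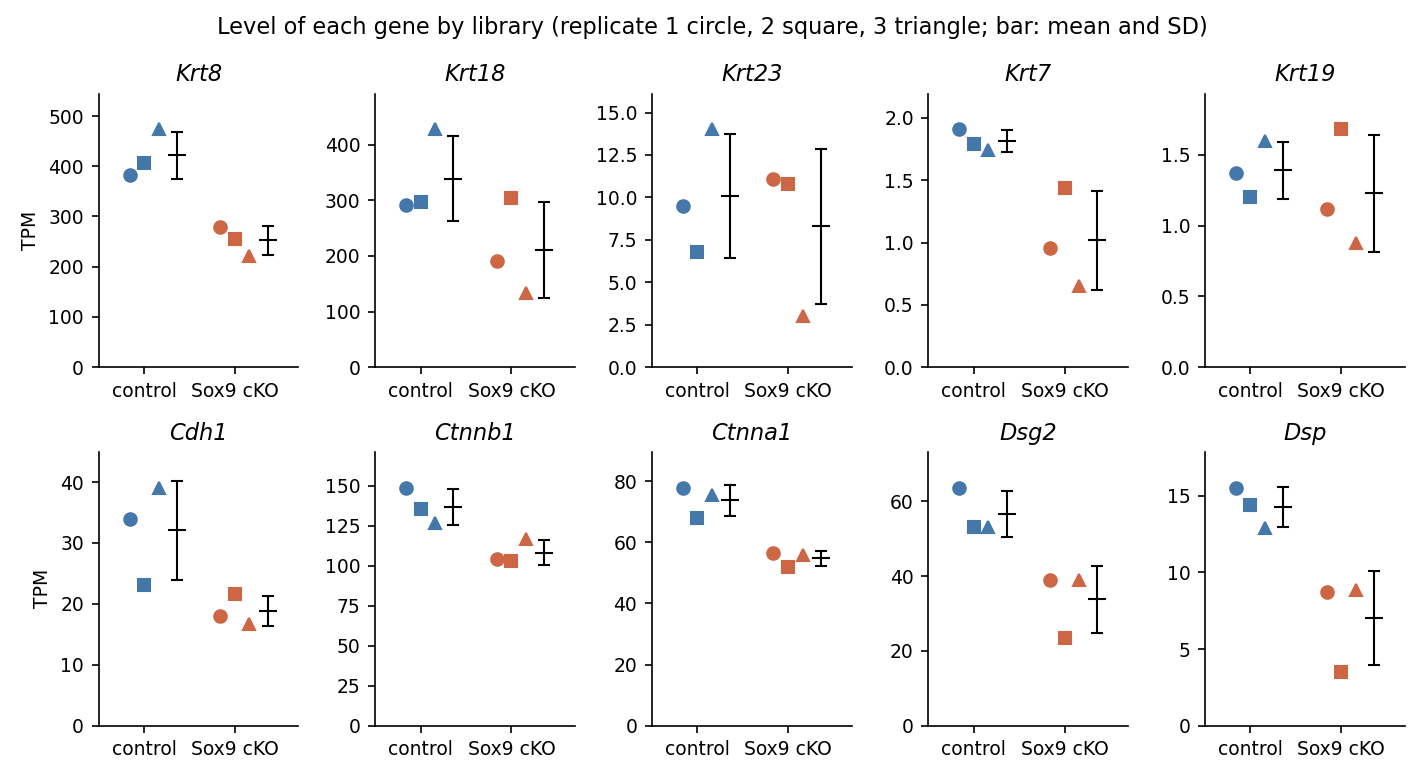
Level of each of the 10 genes in TPM (vertical axes, each starting at 0) in 3 control and 3 Sox9 cKO liver libraries; symbols mark the replicate number and bars the mean ± SD of 3 libraries. The groups are apart for Krt8, Krt7, Cdh1, Ctnnb1, Ctnna1, Dsg2 and Dsp, and overlap for Krt18, Krt23 and Krt19.

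Facts of the libraries bear on every comparison here. Sox9 was at 1.69, 1.43 and 1.43 TPM in the control group, against 0.19, 0.40 and 0.68 TPM in Sox9 cKO (limma adjusted p = 0.0323), a call kept in 7 of 18 other settings. Xist, a female-specific RNA, reached 114 TPM in control replicate 1 and 123 TPM in control replicate 2, and did not exceed 0.02 TPM in the other 4 libraries, so that only control replicate 3 matches the Sox9 cKO libraries in its sex markers. Library replicates also differed by transcript length. Against the other libraries of its group, Sox9 cKO replicate 2 was 0.22 higher on the log2 scale in the median of genes with transcripts up to 1000 bases and lower (-0.46) in that of genes above 8000 bases, while Sox9 cKO replicate 3 went from -0.28 to 0.34. The fold change between the groups followed length too, from a median of -0.03 in the shortest class to -0.43 in the longest. Where removal of the length trend is given below, it also took out the shift over all tested genes. Their median log2 fold change was then 0.02, against -0.24 as reported, so that setting is no correction for length alone. In whole tissue, fewer cells of a type and less RNA per cell cannot be told apart.

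The order of levels, which TPM allows because it divides by length, set the hepatocyte keratins far above the duct keratins. In controls the order of means was Krt8, Krt18, Ctnnb1, Ctnna1, Dsg2, Cdh1, Dsp, Krt23, Krt7 and Krt19, and of these neighbours Krt8 overlapped with Krt18 and Dsp with Krt23. In Sox9 cKO the order was the same down to Cdh1, then Krt23, Dsp, Krt19 and Krt7, with overlaps of Krt8 with Krt18, Krt23 with Dsp, and Krt19 with Krt7. Krt8 and Krt18 together held 98.1% to 98.6% of the summed TPM of the 5 keratins in controls and 97.3% to 98.7% in Sox9 cKO. Krt7 and Krt19 together held 0.363% to 0.476% in controls and 0.424% to 0.544% in Sox9 cKO, so the share of the duct keratins overlapped between the groups. The summed level of the 5 keratins was 689, 714 and 919 TPM in the control group, against 484, 574 and 360 TPM in Sox9 cKO replicates 1, 2 and 3.

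Krt8 (chromosome 15, 101996698 to 102004482, minus strand, mm10), the type II keratin of hepatocytes and duct cells, measured 383, 407 and 474 TPM for control replicates 1, 2 and 3, against 280, 256 and 222 TPM in Sox9 cKO replicates 1, 2 and 3. The lowest control stood above the highest Sox9 cKO library. Its mean fell from 422 ± 46.8 to 252 ± 29.0 TPM (SD, n = 3 each), a log2 fold change of -0.74 (SE 0.14, 95% interval -1.07 to -0.41, limma adjusted p = 0.0250). The median change of tested genes with transcripts of 1500 to 2500 bases, the class of Krt8, was -0.16. The direction held in all 19 other settings, with log2 fold changes from -0.91 to -0.47. Several of them, such as leaving out a library, cannot turn the sign of a gene whose groups do not overlap. The call was lost in 8 of the 19. Among these were median centring (adjusted p = 0.153), removal of the length trend (0.0674), a term for the sex marker Xist (0.0921), leaving out both controls with Xist (0.274), and leaving out control replicate 1 (0.0809), 2 (0.0978) or 3 (0.0793). Against control replicate 3 alone, the control without Xist, the 3 Sox9 cKO libraries were lower by log2 differences of -0.76 to -1.09. For this and any other single gene an exact permutation test of 3 against 3 libraries cannot give a two-sided p below 0.1.

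Krt18 (chromosome 15, 102028180 to 102032027, plus strand), the type I partner of Krt8, lies 23697 bases from Krt8 on the same chromosome and is transcribed away from it. It was at 292, 297 and 428 TPM in the control group, against 192, 304 and 134 TPM in Sox9 cKO. Control replicate 3 and Sox9 cKO replicate 2 were each the highest of their group, and Sox9 cKO replicate 2 was above 2 of the 3 controls. Its log2 change was -0.75, as large as that of Krt8, but its SE was 0.30 (95% interval -1.43 to -0.06, limma adjusted p = 0.140). Without Sox9 cKO replicate 2 the change was -1.05 and passed (adjusted p = 0.0476), and it also passed with array weights (adjusted p = 0.0336). Without Sox9 cKO replicate 3 it was -0.47 (adjusted p = 0.248), and after median centring it was also -0.47 (0.434). The ratio of Krt8 to Krt18 was 1.31, 1.37 and 1.11 in controls and 1.46, 0.840 and 1.65 in Sox9 cKO, so the balance of the pair overlapped between the groups, and it was below 1 only in Sox9 cKO replicate 2.

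Krt23 (chromosome 11, 99477974 to 99493137, minus strand), a type I keratin induced in stressed liver and in the reactive duct cells of liver disease, was at 9.49, 6.80 and 14.02 TPM in the control group, against 11.1, 10.8 and 3.02 TPM in Sox9 cKO. Sox9 cKO replicates 1 and 2 lay inside the control range and replicate 3 below it. Its log2 change was -0.40 (SE 0.47, 95% interval -1.49 to 0.69, limma adjusted p = 0.599), and without Sox9 cKO replicate 3 it was 0.16. Over 19 other settings it ranged from -0.91 to 0.16.

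Krt7 and Krt19, the keratins that mark duct cells among liver epithelial cells, were both near the lower limit of what was tested. Krt7 (chromosome 15, 101411043 to 101430313, plus strand) was at 1.91, 1.79 and 1.74 TPM in the control group, against 0.96, 1.44 and 0.65 TPM in Sox9 cKO. The controls lay close together and above every Sox9 cKO library, which spread more widely. Its log2 fold change was -0.64 (SE 0.23, 95% interval -1.18 to -0.10) and did not pass (limma adjusted p = 0.117). The change was -0.37 after median centring, -0.35 after removal of the length trend and -0.15 under quantile normalization. An antisense gene, Gm671, overlaps Krt7, and the strand setting of the counting is not given in the sources used here, so reads of the pair may be mixed.

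Krt19 (chromosome 11, 100140810 to 100148665, minus strand), the smallest of these keratins and the usual marker of ducts, was at 1.37, 1.20 and 1.60 TPM in the control group, against 1.12, 1.68 and 0.88 TPM in Sox9 cKO. The highest value of all 6 libraries was in Sox9 cKO replicate 2 and the lowest in Sox9 cKO replicate 3. Its log2 change was -0.15 (SE 0.23, 95% interval -0.69 to 0.38, limma adjusted p = 0.694), and it was above 0 under quantile normalization (0.35) as it was under median centring. The ratio of Krt7 to Krt19 was 1.39, 1.49 and 1.09 in controls and 0.857, 0.857 and 0.739 in Sox9 cKO. Krt7 was thus the more abundant duct keratin in every control and the less abundant in every Sox9 cKO library, a contrast chosen after its values were seen and given without a test. The ratio of Krt18 to Krt19 was 213 to 268 in controls and 153 to 181 in Sox9 cKO, again without overlap. In all 10 ratios between pairs of genes were computed, and 5 did not overlap between the groups. The share of other gene pairs without overlap was not computed. The median change of genes of like transcript length was -0.30 for Krt7 and -0.16 for Krt19. The part of length in the ratio of Krt7 to Krt19 was not tested.

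Other markers of the cell types that carry these keratins are given here beside them. Their counts are to be read against all tested genes, of which 8.76% passed as lower and 33.7% were lower without overlap. Of 12 cholangiocyte markers 7 were tested, and 3 of them (Sox9, Cd24a and Tspan8) passed as lower. Sox9 is the deleted gene, so its own fall follows from the design and is no separate result about duct cells. The summed level of all 12 markers, Sox9 included and most of it Spp1, was 76.1 to 128 TPM in the control group, against 49.7 to 72.3 TPM in Sox9 cKO. Cftr, Sctr, Cldn4 and Muc1 did not exceed 0.66 TPM. Spp1, which encodes osteopontin of duct cells, was at 74.5 ± 27.5 TPM in the control group, against 51.7 ± 11.0 TPM in Sox9 cKO (limma adjusted p = 0.251), with overlap. Epcam, an adhesion molecule of duct cells, was at 0.90, 0.57 and 1.19 TPM in the control group, against 0.93, 0.44 and 0.58 TPM in Sox9 cKO. Of 7 markers of mesothelial cells, the liver's surface layer, which also makes these keratins, 4 were tested, with a median log2 fold change of -0.06. Their summed level overlapped, at 5.16 to 7.70 TPM in the control group, against 4.69 to 8.06 TPM in Sox9 cKO. Albumin (Alb), the main product of hepatocytes, was at 100900 to 110460 TPM in the control group, against 74907 to 82381 TPM in Sox9 cKO (limma adjusted p = 0.330). Of 10 hepatocyte markers Alb and Tf were lower without overlap and the other 8 overlapped, among them Ttr (0.28) and Ass1 (0.43) with log2 fold changes above 0, and the median was -0.27. The summed markers of endothelial cells were 62.8 to 74.2 TPM in the control group, against 33.9 to 49.2 TPM in Sox9 cKO. Those of lymphocytes and neutrophils were 42.2 to 79.8 TPM and 4.68 to 14.8 TPM. In controls the largest parts of the latter sum were the neutrophil genes S100a8 (10.5 to 23.6 TPM) and S100a9 (18.05 to 45.1 TPM). The lymphocyte markers Cd79a (limma adjusted p = 0.256) and Cd3e (not tested) overlapped, while Ptprc and Nkg7 were lower without overlap. The part of cell composition in the keratin values was not tested.

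Upstream sequence was compared where the reference held it. Promoters from RefSeq (build GRCm38.p6) were found for 6 of the 10 members, and the 250 bases before each start were searched on both strands. The letters CACCTG, an E-box of the kind that SNAI2 and ZEB2 are known to recognise, occurred in the promoters of Krt18, Krt7 and Krt23 and in neither that of Ctnnb1 nor that of Dsp, and 17.2% of the 32851 promoters in the reference held them. The E-box is shown in capitals within 30 bases, 5′ to 3′ on the gene's strand. The promoters shown were picked for holding these letters, so having them in common is no separate result.
Krt18: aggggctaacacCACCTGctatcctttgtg
Krt7: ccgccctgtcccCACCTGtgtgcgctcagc
Krt23: agatctgctaccCACCTGgtggcctgggcc
These windows lie at chr15:102027990-102028019 (plus strand), chr15:101412347-101412376 (plus) and chr11:99493335-99493364 (minus). The E-box starts 214 bases before the RefSeq start of Krt18, 44 before that of Krt7 and 232 before that of Krt23. In the GENCODE annotation, which places some starts further upstream, the Krt7 window overlaps an exon and the other windows lie outside the gene. Of the SOX-type letters, ACAAAG (16.5% of promoters) occurred in Krt18 and ACAATG (10.7%) in Krt23. A match is a description of these letters and shows no binding.

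Among the adherens junction members Cdh1 had the largest difference. Cdh1 (chromosome 8, 106603351 to 106670246, plus strand), which encodes E-cadherin, was at 33.9, 23.2 and 39.1 TPM in the control group, against 18.04, 21.6 and 16.8 TPM in Sox9 cKO. The gap between the groups was narrow, from control replicate 2 to Sox9 cKO replicate 2. Its log2 change was -0.73 (SE 0.21, 95% interval -1.21 to -0.25) and did not pass (limma adjusted p = 0.0633). In 19 other settings it ranged from -1.04 with the sex-marker term to -0.42 after removal of the length trend and never passed, with adjusted p of 0.0622 to 0.330.

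Ctnnb1 (chromosome 9, 120929216 to 120960507, plus strand) encodes beta-catenin, which serves in junctions and as the nuclear effector of WNT signalling. It was at 149, 136 and 126 TPM in the control group, against 104, 103 and 117 TPM in Sox9 cKO. The groups were apart by less than 10 TPM, and its log2 change was -0.34 (SE 0.12, 95% interval -0.62 to -0.06, limma adjusted p = 0.114). After median centring the change was -0.06. It was also -0.06 after removal of the length trend, which takes out the shift over all genes too. Ctnna1 (chromosome 18, 35118859 to 35254779, plus strand), which encodes alpha-catenin, was at 77.9, 67.9 and 75.3 TPM in the control group, against 56.5, 52.0 and 55.7 TPM in Sox9 cKO. Both groups were tight, and the change was -0.42 (SE 0.12, limma adjusted p = 0.0579), or -0.15 after median centring and -0.14 after removal of the length trend. The ratio of Ctnnb1 to Ctnna1 overlapped, at 1.68 to 2.00 in controls and 1.84 to 2.10 in Sox9 cKO. Ctnnb1 overlaps Ulk4 and Ctnna1 overlaps Lrrtm2 on the opposite strand.

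Both desmosome members were lower in every Sox9 cKO library than in every control. Dsp (chromosome 13, 38151294 to 38198577, plus strand), which encodes desmoplakin, was at 15.5, 14.4 and 12.9 TPM in the control group, against 8.74, 3.51 and 8.82 TPM in Sox9 cKO. Sox9 cKO replicate 2 stood well below the others of its group. Its log2 change was -1.07 (SE 0.32, 95% interval -1.81 to -0.33, limma adjusted p = 0.0707). Without Sox9 cKO replicate 2 it was -0.67 and passed (adjusted p = 0.0399). After median centring it was -0.80, and after removal of the length trend, which takes out the shift over all genes too, it was -0.63 (adjusted p = 0.160). The longest Dsp transcript, at 9592 bases, falls in the class in which this library was lowest.

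Dsg2 (chromosome 18, 20558074 to 20604521, plus strand), the desmosomal cadherin of simple epithelia, was at 63.7, 53.3 and 53.1 TPM in the control group, against 39.0, 23.4 and 39.0 TPM in Sox9 cKO. Sox9 cKO replicate 2 was again the lowest. Its log2 change was -0.77 (SE 0.21, 95% interval -1.26 to -0.28, limma adjusted p = 0.0594), against a median of -0.30 for genes with transcripts of 4000 to 6000 bases. After median centring it was -0.50, and after removal of the length trend -0.41. Within Sox9 cKO the keratins Krt18, Krt7 and Krt19 were highest, and Dsg2, Dsp, Ctnna1 and Ctnnb1 lowest, in replicate 2, the library in which short transcripts were high and long ones low. Cdh1 and Krt7, whose longest transcripts are 4430 and 4094 bases, were also highest there. Krt8 and Krt23, with shorter longest transcripts of 1958 and 1565 bases, were instead highest in Sox9 cKO replicate 1. How far transcript length accounts for this order was not tested.

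**Figure D2:**
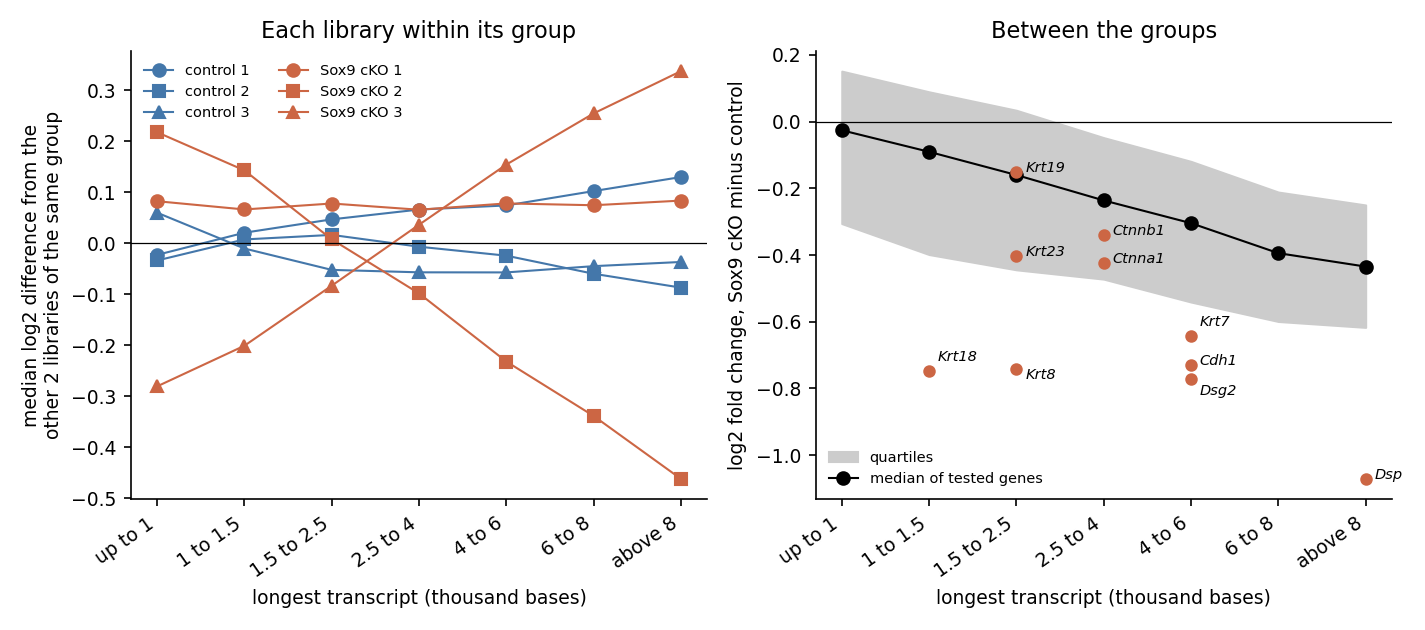
Left, median log2 difference of each library from the other 2 libraries of its group, by class of longest transcript (the axis is in kilobases); right, log2 fold change (Sox9 cKO minus control) by the same classes, with the median and quartiles of tested genes and the 10 members as points. Sox9 cKO replicates 2 and 3 slope in opposite directions, and the class median between groups goes from -0.03 to -0.43.

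**Figure D3:**
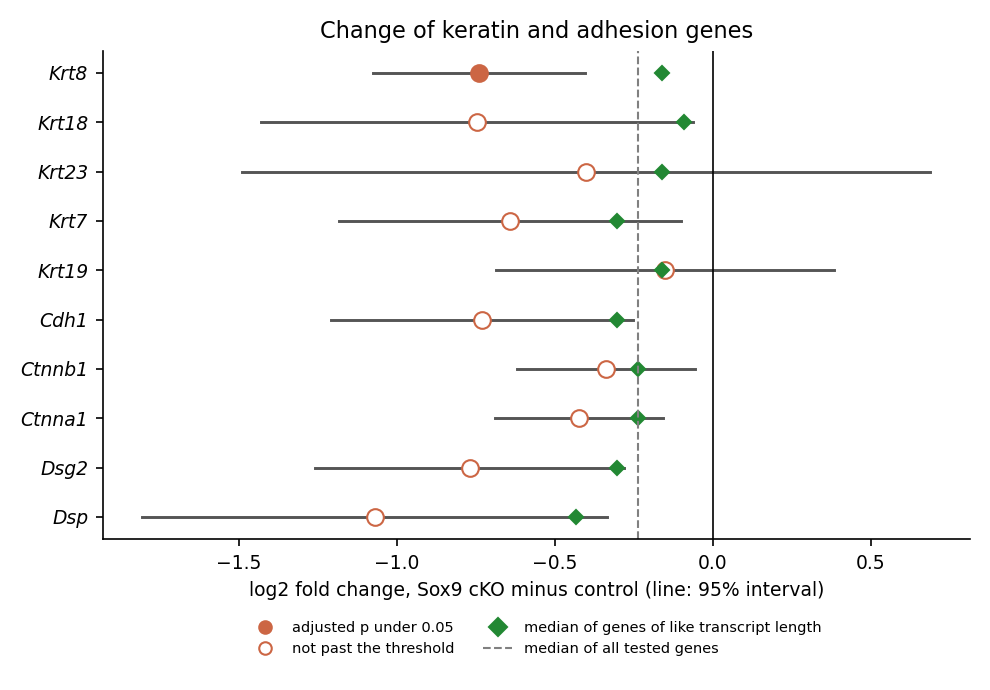
Log2 fold change (Sox9 cKO minus control) of the 10 genes with 95% intervals from limma, the median of genes in the same transcript length class (diamonds) and the median of all tested genes (dashed line). Krt8 is the filled point; its interval, -1.07 to -0.41, does not reach its class median of -0.16.

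Among other desmosome genes Dsc2 fell most clearly. Of 14 listed genes 7 were tested and 2 passed, both lower (Dsc2 and Jup), with a median log2 fold change of -0.44. The share passing as lower over all tested genes was 8.76%, with a median of -0.24. Dsc2, which encodes desmocollin 2, the partner of desmoglein 2, was at 46.2, 38.9 and 43.5 TPM in the control group, against 23.1, 13.5 and 19.3 TPM in Sox9 cKO. The lowest control was above the highest Sox9 cKO library, and its log2 change was -1.21 (SE 0.20, limma adjusted p = 0.0161). It passed after median centring, quantile normalization and removal of the length trend, and was lost without control replicate 1 (0.0754), 2 (0.0654) or 3 (0.0609), with the sex-marker term (0.122) and without the controls with Xist (0.282). The ratio of Dsg2 to Dsc2 was 1.38, 1.37 and 1.22 in controls and 1.69, 1.73 and 2.02 in Sox9 cKO, without overlap. Jup, which encodes plakoglobin, a catenin of both junction types, went from 14.2 ± 0.556 to 9.23 ± 0.622 TPM (-0.60, limma adjusted p = 0.0310), a call lost in 10 of 19 other settings, among them median centring and leaving out any 1 control. Pkp2, a plakophilin, had a log2 fold change of -0.44 (limma adjusted p = 0.0921). Dsg1c, a desmoglein of stratified epithelia, was at 6.23, 4.46 and 15.8 TPM in the control group, against 4.16, 0.97 and 2.20 TPM in Sox9 cKO (-1.63, limma adjusted p = 0.0871). Perp, a membrane protein of desmosomes, was at 75.2 to 88.2 TPM in the control group, against 76.2 to 103 TPM in Sox9 cKO. Dsg1a, Dsg1b, Dsg3, Dsg4, Dsc1, Dsc3 and Pkp1 did not exceed 0.10 TPM.

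Of 24 other genes of the cadherin-catenin complex and adherens junctions 19 were tested and 3 passed, all lower (Jup, Lima1 and Arvcf). Their median was -0.32 over the 19 tested, against -0.24 over all tested genes, of which 8.76% passed as lower. Lima1, an actin-binding protein at alpha-catenin, went from 33.4 ± 1.42 to 21.5 ± 3.79 TPM (-0.64, limma adjusted p = 0.0401), and Arvcf, a catenin of the p120 family, from 8.17 ± 0.678 to 4.83 ± 1.08 TPM (-0.72, limma adjusted p = 0.0476). Both calls were lost after median centring and without any 1 control. Ctnnd1, which encodes p120-catenin, had a log2 fold change of -0.52 (limma adjusted p = 0.0692). Cdh2, the N-cadherin that hepatocytes make beside E-cadherin, was at 35.6, 39.9 and 37.0 TPM in the control group, against 30.5, 19.1 and 35.6 TPM in Sox9 cKO (-0.44, limma adjusted p = 0.222). Nectin2, a nectin adhesion molecule, had a log2 fold change of 0.16 (limma adjusted p = 0.547). The ratio of Cdh2 to Cdh1 overlapped between the groups.

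Of 47 other keratin rows 10 were above 0 in any library and only Krt10 was tested. Krt10, a type I keratin of stratified epithelium, was at 1.05 to 1.62 TPM in the control group, against 0.57 to 1.08 TPM in Sox9 cKO (limma adjusted p = 0.184). Krt20, a keratin of intestinal epithelium, was at 0.30, 0 and 1.05 TPM in the control group, and all 3 Sox9 cKO libraries list it at 0. Of 14 plakins and other filament partners 13 were tested and 2 passed, both lower, with a median of -0.57. Among all tested genes 8.76% passed as lower and the median was -0.24. The lower ones were Vim, the vimentin of mesenchymal cells (-1.34, SE 0.19, limma adjusted p = 0.00967), and Lmna, which encodes the nuclear lamins A and C (-0.57, SE 0.12, limma adjusted p = 0.0315). The Lmna call was lost after median centring and without any 1 control, and that of Vim without control replicate 2 (0.0531), with the sex-marker term (0.0585) and without the controls with Xist (0.194). All 7 markers of stellate cells and fibroblasts, which are among the cells that carry vimentin, were lower without overlap. Their summed level was 320 to 345 TPM in the control group, against 98.6 to 193 TPM in Sox9 cKO. All 6 macrophage markers, 6 of 7 endothelial markers and 33.7% of tested genes were lower without overlap too. The part of cell composition in the value of Vim was not tested.

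Of 16 genes of beta-catenin turnover and its nuclear partners 15 were tested and 1 passed as lower. The median of -0.26 lay near the -0.24 of all tested genes, of which 8.76% passed as lower. The lower one, Tcf7, a WNT transcription factor also made by T cells, went from 4.49 ± 1.02 to 1.57 ± 0.595 TPM (-1.29, limma adjusted p = 0.0254), a call lost after median centring and without any 1 control. Axin2, a target and inhibitor of the pathway, was at 3.48, 3.60 and 1.03 TPM in the control group, against 2.02, 1.17 and 2.97 TPM in Sox9 cKO, with control replicate 3 the lowest of all.

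Among regulators, the Cdh1 repressors Snai2 and Zeb2 and the epithelial transcription factor Elf3 passed as lower. Of 8 repressors of Cdh1 6 were tested and 2 passed, both lower, and all 6 were lower without overlap, with a median of -0.60. Over all tested genes 8.76% passed as lower, 33.7% were lower without overlap and the median was -0.24. Snai2 was at 5.34, 7.71 and 10.3 TPM in the control group, against 2.79, 2.64 and 3.63 TPM in Sox9 cKO (-1.20, limma adjusted p = 0.0286), and Zeb2 at 4.25, 4.18 and 3.60 TPM and at 1.87, 0.96 and 1.67 TPM (-1.20, limma adjusted p = 0.0221). Both genes are known to be made by mesenchymal and immune cells. All 6 macrophage markers were lower without overlap as well, with a summed level of 224 to 389 TPM in the control group, against 63.3 to 163 TPM in Sox9 cKO. The part of those cells in the values of Snai2 and Zeb2 was not tested. Their calls were lost under quantile normalization, removal of the length trend and the sex-marker term, without the controls with Xist, and without control replicate 2 or 3, that of Zeb2 also without control replicate 1 and that of Snai2 also after median centring and without Sox9 cKO replicate 1 or 2. Of 13 epithelial transcription and splicing regulators 4 were tested, and Elf3, an epithelial transcription factor, passed as lower, from 1.91, 1.75 and 2.16 TPM in controls to 0.07, 0.18 and 0.26 TPM in Sox9 cKO (-1.87, limma adjusted p = 0.00571). That call was lost with the sex-marker term (0.0545) and without the controls with Xist (0.162). Esrp2, a splicing factor of hepatocytes, had a log2 fold change of -0.39 (limma adjusted p = 0.124), and Grhl2, Ovol1 and Ovol2 were too low to be tested.

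Genes linked to stressed keratins and to Mallory-Denk bodies, the aggregates of Krt8 and Krt18 in damaged hepatocytes, mostly overlapped between the groups. So did most tested genes, of which 37.5% did not overlap in either direction. Of the 10 genes in this list, all tested, 1 passed as higher and 1 as lower, with a median of -0.10. All tested genes had a median of -0.24, and 0.821% passed as higher and 8.76% as lower. Hspb1, a small heat shock protein that binds intermediate filaments, was at 2.01, 1.20 and 2.18 TPM in the control group, against 7.63, 22.08 and 17.98 TPM in Sox9 cKO. Every Sox9 cKO library was above every control, and its log2 change was 2.74 (SE 0.38, limma adjusted p = 0.00964). Its call was lost without control replicate 2 (0.0521), with the sex-marker term (0.103) and without the controls with Xist (0.248). Tgm2, a transglutaminase that crosslinks keratins, was at 146, 131 and 149 TPM in the control group, against 49.2, 63.6 and 57.4 TPM in Sox9 cKO (-1.32, SE 0.13, limma adjusted p = 0.00466). It passed without any 1 library and was lost with the sex-marker term (0.0506) and without the controls with Xist (0.182). Sqstm1, which encodes the p62 protein of these aggregates, was at 282 to 362 TPM in the control group, against 295 to 359 TPM in Sox9 cKO.

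**Figure D4:**
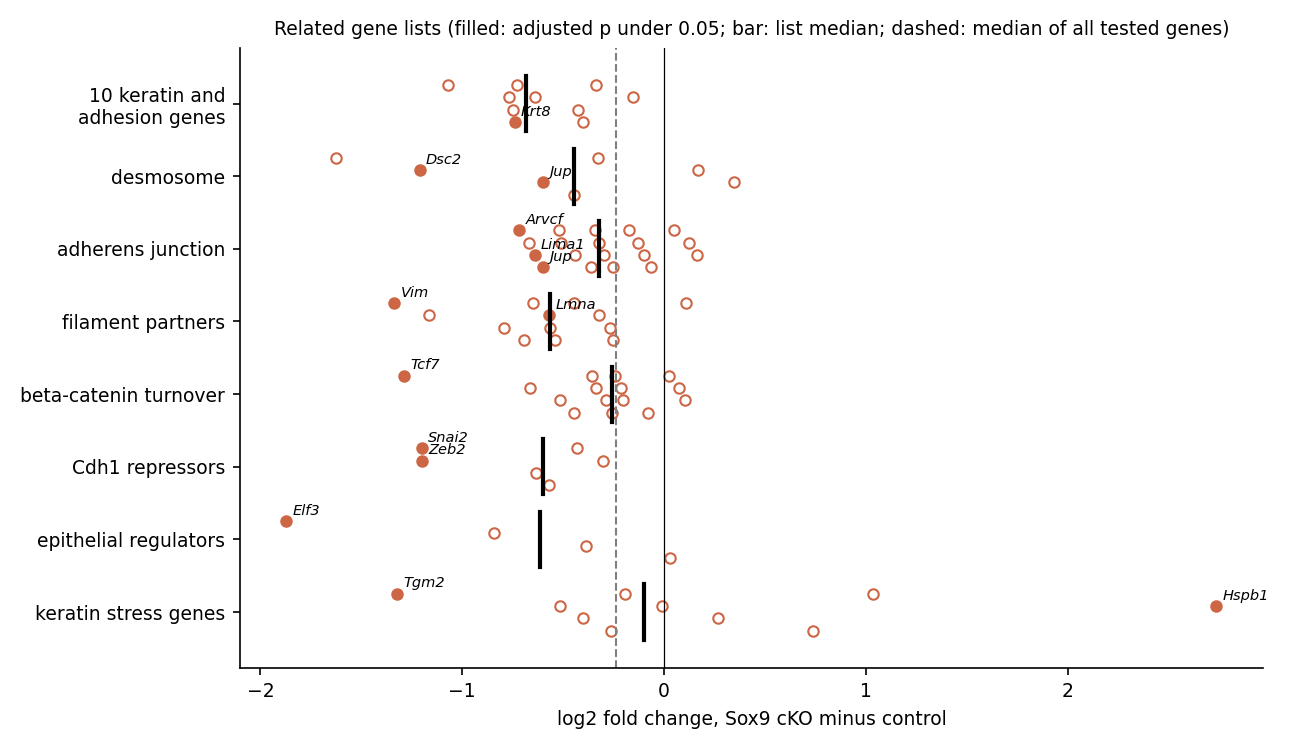
Log2 fold change (Sox9 cKO minus control) of each tested gene in the 10 keratin and adhesion genes and 7 related lists; filled points passed limma at an adjusted p of 0.05, bars are list medians and the dashed line is the median of all tested genes, -0.24. Hspb1 is the only filled point above 0.

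**Figure D5:**
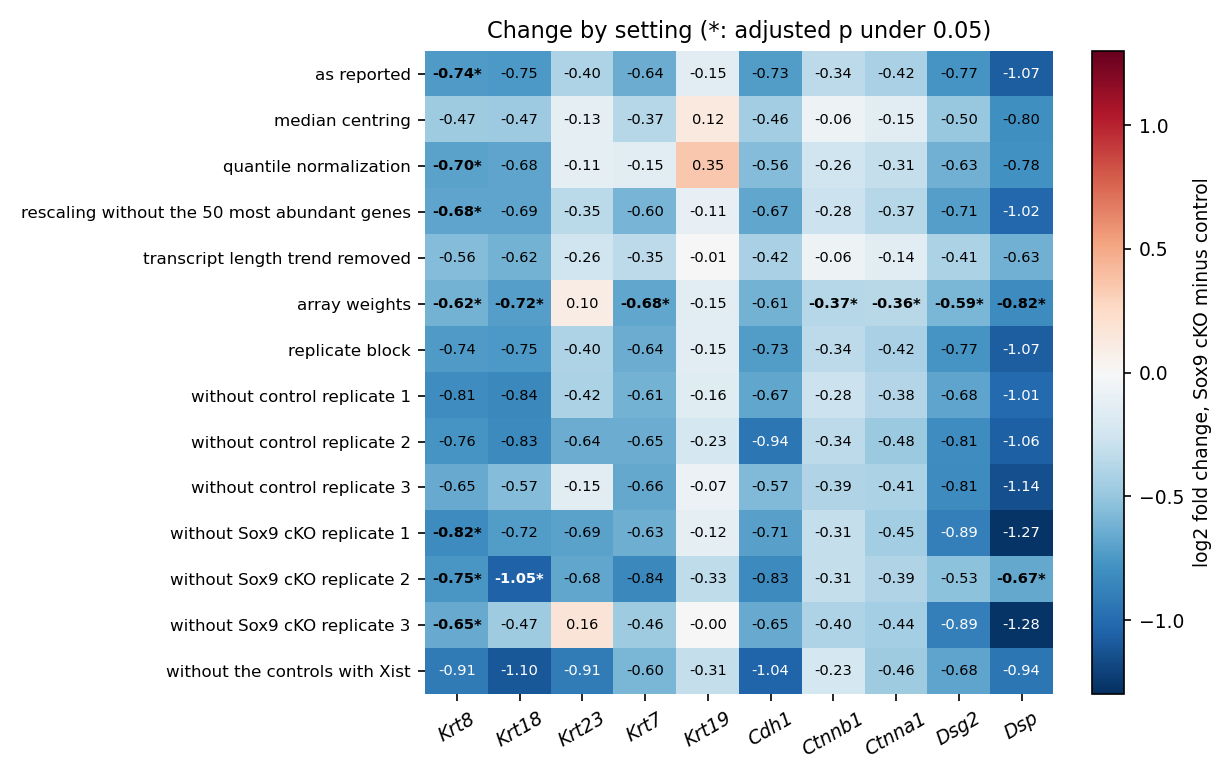
Log2 fold change (Sox9 cKO minus control) of the 10 genes under the reported setting and 13 others, coloured from lower (blue) to higher (red), with an asterisk where the limma adjusted p was under 0.05. Krt8 carries no asterisk in the rows that leave out a control, and 7 members carry it with array weights.

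Across settings the direction was steady for 8 members. Krt8, Krt18, Krt7, Cdh1, Ctnnb1, Ctnna1, Dsg2 and Dsp were below 0 in all 19 alternatives. Not all of these can change a sign. Other filters, no variance trend and the replicate block leave the fold change as reported. The sex-marker term gives the same value as leaving out the controls with Xist. For members whose groups do not overlap, leaving out libraries cannot turn the sign. Krt19 and Krt23 changed sign in 2 alternatives each. Krt8 passed in 11 of the 19, Krt18 and Dsp in 2 each, Krt7, Ctnnb1, Ctnna1 and Dsg2 in 1 each, with array weights, and Cdh1, Krt19 and Krt23 in 0, with unadjusted limma p in the reported setting of 0.00801, 0.532 and 0.419. Compared with control replicate 3 alone, 9 of the 10 members were lower in all 3 Sox9 cKO libraries, as were 47.9% of tested genes, and Krt19 was the exception. Control replicate 3 was the highest control for Krt8, Krt18, Krt23, Krt19 and Cdh1.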

How the data were processed

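The authors deposited 1 table of TPM, which scales length-corrected reads of each library to a fixed total, so depth is unknown and a change in abundant genes shifts all others. Per the submitters' processing notes, reads were processed with Trim Galore 0.5.0, cutadapt 1.16, STAR 2.6.0a (mm10) and RSEM 1.3.1. Which annotation RSEM used, and with what strand setting, is not given in the sources here.

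Genes averaging 0.5 TPM or more were fitted as log2(TPM + 0.5) by limma 3.58.1 under R 4.3.3, with a term for group and a variance trend, two-sided, with Benjamini-Hochberg adjustment over 12539 genes. The model was also run on simulated data, drawn for each gene separately. That simulation held no length trends within libraries and no shift over all genes, so it cannot speak to those. Columns were matched through library numbers. Positions and the longest coding transcript, found for 92.3% of tested genes, came from GENCODE M21 (GRCm38, the assembly of mm10), and 6 listed symbols were matched by synonym. Named genes were the 10 members, 11 genes fixed by name and, per list, up to 4 past the threshold or else the 2 most abundant; others were named after their values were seen. Members, lists and tests were chosen with earlier results of these data known. The length-trend alternative was added after the data were seen. It subtracts from each library a smooth curve over transcript length, the level of the library included. The promoter of Krt8 is not reported here.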

Additional observations from a re-analysis of the deposited data

How the results depend on the processing

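Over all tested genes 103 were higher and 1099 lower, and 0 members were higher and 1 lower. Lower calls over all genes were 256 after median centring, with 0 members, 215 after quantile normalization, and 284 after removal of the length trend, with 0 members. Lower genes made up 91.4% of calls as reported, 63.7% after median centring, 64.2% after quantile normalization and 66.4% after removal of the length trend. Array weights gave 252 higher and 2312 lower genes and 7 lower members. The sex-marker term gave 21 and 49 genes with 0 members, and leaving out the controls with Xist gave 9 and 18 with 0 members. Leaving out 1 library gave 32 to 107 higher and 104 to 1003 lower genes and 0 to 3 lower members. Same-numbered libraries did not deviate together (correlations of -0.045, 0.0035 and -0.027), and with a replicate block there were 563 lower genes and 0 lower members. Sign changes among named genes were those of Krt19 (0.12 after median centring, 0.35 after quantile normalization), Krt23 (0.097 with array weights, 0.16 without Sox9 cKO replicate 3, with a range of -0.69 to 0.16 on leaving out 1 library) and Epcam (0.0074 after median centring, 0.24 after quantile normalization, 0.078 with array weights). The causes were not tested. Without counts, the precision of low genes such as Krt7 and Krt19 cannot be given.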
